A study of Mus musculus with 38 samples.

Results

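The genes of Polycomb repressive complex 2 (PRC2) were followed through tumour progression and chemotherapy in the MMTV-PyMT mouse model of breast cancer. The set held 10 genes, namely Ezh1, Ezh2, Eed, Suz12, Rbbp4, Rbbp7, Aebp2, Jarid2, Mtf2 and Phf1, and was chosen by name, with every probe whose gene name on the array was one of these. It comprised 20 of the 41174 probes that were no controls, for 10 of the 27962 gene names on the array. Ezh1, Ezh2, Eed, Phf1 and Rbbp7 had 1 probe each, Suz12 and Aebp2 had 2, Jarid2 had 3, and Mtf2 and Rbbp4 had 4.

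PRC2 places methyl groups on lysine 27 of histone H3, a mark that keeps developmental and cell identity genes silent. Ezh2 or its paralogue Ezh1 supplies the methyltransferase activity, Eed and Suz12 hold the complex together and are needed for that activity, and Rbbp4 and Rbbp7 bind histones and also serve in other chromatin complexes. Mtf2 and Phf1 are Polycomb-like proteins that join one form of the complex, whereas Aebp2 and Jarid2 join another, and these accessory proteins steer PRC2 to its targets.

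All samples derived from hyperplasias of MMTV-PyMT;actin-GFP females on the FVB/n background, grafted into FVB/n females whose mammary fat pads had been cleared of epithelium. The polyoma middle T oncogene is driven by the MMTV promoter, which is active in mammary epithelium, whereas GFP comes from a ubiquitous promoter and therefore marked every donor cell, and GFP+ cells were collected by flow sorting on GFP. The progression experiment held 5 adenoma samples from outgrowths of 5 weeks, 6 carcinoma samples from outgrowths of 18 weeks, 6 samples of disseminated cells sorted from the lungs of mice with 18-week tumours and pooled from 3 to 6 mice, and 5 samples of metastases taken from lungs 8 to 10 weeks after the primary tumour had been removed. The chemotherapy experiment held 6 untreated carcinomas, labelled as controls, 6 residual tumours (labelled as regressed) 10 days after 1 dose of docetaxel, doxorubicin and cyclophosphamide, and 4 relapsed tumours (labelled as resistant) 10 days after 4 doses, with treatment begun 2 months after transplantation. Each sample was labelled with Cy5 and hybridised beside a Cy3-labelled universal mouse reference RNA, so each value below is a log2 ratio of sample to reference, a relative level that can be compared between samples but not between probes. RNA of the progression samples was amplified in 2 rounds. RNA of the chemotherapy samples was turned into cDNA and then into labelled cRNA, with no such 2 rounds described. The 2 experiments were therefore normalised and tested apart. The labels do not say that samples of a group came from separate animals, so the p-values measure the spread between these samples.

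Between 48.39 and 78.9% of spots were well above background on the progression arrays and between 50.55 and 64.31% on the chemotherapy arrays. The median sample signal over background moved with stage, from 68.7 to 237 in adenomas, 227 to 360 in carcinomas, 85.8 to 478 in disseminated cells and 419 to 522 in metastases, which did not overlap with carcinomas. The share of spots above background was lowest in adenomas 3 and 4, at 51.1 and 48.4%, and the part of signal in the changes below was not tested. Carcinoma 6 and disseminated 6 stood apart, with median correlations to their own groups of 0.768 and 0.685 and to the metastases of 0.827 and 0.872. Disseminated 1, disseminated 4 and metastases 5 were also closer to another group than to their own, by smaller margins (0.848 against 0.862, 0.773 against 0.785 and 0.854 against 0.865). In the chemotherapy experiment all untreated tumours, residual 3 and relapsed 4 were closer to another group than to their own. For residual 3 the median correlations were 0.8997 with its own group and 0.9248 with the relapsed tumours. The mean log2 ratio of 15 macrophage markers was 4.77 in carcinoma 6 against 0.31 to 1.32 in the other carcinomas. In adenomas this mean ran from 0.50 to 1.04 with a median of 0.92, in disseminated cells from 3.36 to 4.55 with a median of 3.93, and in metastases from 1.13 to 4.76 with a median of 3.44, and all 15 markers were well above background on every array of the latter 2 groups. The 7 alveolar macrophage markers had group medians of -0.15 in adenomas, 0.18 in carcinomas, 4.40 in disseminated cells and 2.74 in metastases, and the medians of 10 lung epithelial markers were 0.84, 1.12, 2.83 and 2.10. In the same order of groups the medians were 1.92, 2.34, 4.71 and 2.37 for 9 neutrophil markers, -0.16, 0.50, 1.63 and 0.90 for 10 endothelial markers, 0.58, -0.01, 0.91 and 0.47 for 12 T and NK cell markers, and -0.78, -0.76, 0.04 and -0.44 for 7 B cell markers, so disseminated cells had the highest median for each of these lists. The same held for 7 erythroid markers, with medians of 1.14, 1.71, 2.675 and 1.50. The medians of 10 fibroblast markers were -1.73, -2.76, -2.59 and -3.43, highest in adenomas and lowest in metastases. The 13 mammary epithelial markers, the check on the labelled tissue, averaged 2.32 to 2.83 in adenomas, 1.77 to 3.05 in carcinomas, -0.26 to 2.79 in disseminated cells and 0.04 to 3.35 in metastases. Fewer cells of a type and less RNA per cell cannot be told apart in these bulk samples. Carcinomas and metastases shared slides 1 to 3, scanned on 1 day, and adenomas and disseminated cells shared slides 4 to 6, scanned on another, so of the 6 comparisons of this experiment the other 4 cannot be told apart from the day of scanning.

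Levels of most PRC2 probes differed over the 4 stages. Limma's moderated F test over the groups called 16 of the 20 probes at an adjusted p under 0.05, against 44.1% of all probes. Metastases against carcinomas gave more called PRC2 probes than any other pair, 13 of 20 against 21% of all probes, with 10 higher and 3 lower in metastases where 8.95% of all probes were higher and 12.1% lower. By gene, 6 members rose only (Ezh1, Ezh2, Eed, Suz12, Aebp2 and Mtf2), Phf1 fell, Rbbp4 had probes in both directions, and Jarid2 and Rbbp7 had no called probe. The median change over the 20 probes was 0.62 on the log2 scale, beside -0.03 over all probes, and for 9 probes the groups did not overlap, which held for 13.4% of all probes.

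**Figure D1:**
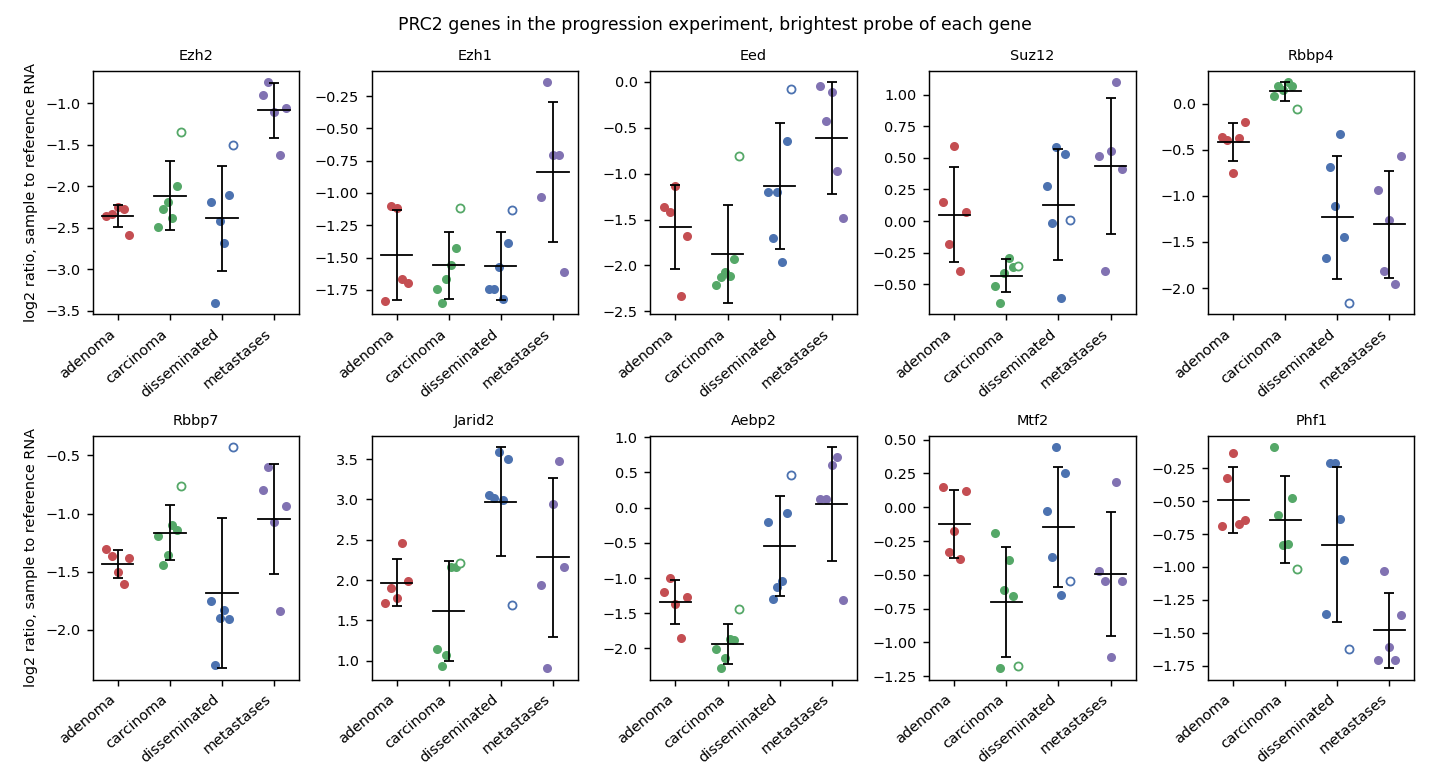
Log2 ratio of sample to reference RNA (vertical axis) for the brightest probe of each PRC2 gene in adenomas (n = 5), carcinomas (n = 6), disseminated cells (n = 6) and metastases (n = 5). Points are arrays, bars are the mean and SD, and open points are carcinoma 6 and disseminated 6, for example the Ezh2 values of -1.34 and -1.51 that lay above those of their own groups.

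Ezh2, the main methyltransferase of dividing cells, was higher in metastases than in every earlier stage. Its log2 ratios were -0.89, -0.74, -1.11, -1.62 and -1.06 in metastases 1 to 5. In adenomas 1 to 5 they were -2.35, -2.33, -2.25, -2.28 and -2.59, and carcinomas had a lowest value of -2.49, a median of -2.23 and a highest of -1.34. All metastases thus lay above all adenomas, and only carcinoma 6 reached into their range. Disseminated cells ran from -3.41 to -1.51 with a median of -2.31, again with 1 array, disseminated 6, inside the range of the metastases. The change was 1.03 ± 0.25 (SE) against carcinomas, or 2.04-fold, with an adjusted p of 0.0076. Against adenomas it was 1.28 ± 0.26, 2.42-fold, with an adjusted p of 0.00149, and against disseminated cells 1.30 ± 0.25, 2.47-fold, with an adjusted p of 0.00262. Only carcinomas shared slides and scanning day with metastases, so these last 2 changes cannot be told apart from the day of scanning. Without carcinoma 6 and disseminated 6 the 3 changes were 1.18, 1.28 and 1.48. None of the comparisons among adenomas, carcinomas and disseminated cells passed the test for Ezh2, with changes between -0.27 and 0.25. Of the 3 calls, that against disseminated cells was lost in the test without moderation of the variances (adjusted p = 0.0786).

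Ezh1, the paralogue that is known to prevail in resting cells, moved the same way. It was a dim probe, well above background on 1 of 5 adenomas, 5 of 6 carcinomas, 3 of 6 disseminated samples and 5 of 5 metastases. Metastases 1 to 5 had log2 ratios of -1.03, -0.14, -0.70, -0.70 and -1.61. Carcinomas ranged from -1.85 to -1.12 with a median of -1.61, adenomas from -1.84 to -1.10 with a median of -1.67, and disseminated cells from -1.82 to -1.13 with a median of -1.66. Metastases 1 to 4 lay above every array of the other groups, and metastases 5 lay within them. The changes were 0.72 ± 0.21 against carcinomas (adjusted p = 0.0202), 0.64 ± 0.22 against adenomas (adjusted p = 0.0353) and 0.73 ± 0.21 against disseminated cells (adjusted p = 0.0281). The call against carcinomas was lost without metastases 2 or without metastases 3, and with Aquantile normalisation between arrays, and the change rose to 1.45 with the processed signals of the scanner software.

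The 2 scaffold subunits rose from carcinomas to metastases. Eed, which reads the methyl mark, had log2 ratios of -0.05, -0.43, -0.11, -0.98 and -1.48 in metastases 1 to 5. In carcinomas 1 to 6 the values were -2.22, -2.13, -2.07, -2.12, -1.93 and -0.81, so 5 of 6 carcinomas lay below all metastases and carcinoma 6 lay among them. The change was 1.27 ± 0.34, or 2.41-fold (adjusted p = 0.012), and 1.48 without carcinoma 6 and disseminated 6. Eed was also higher in metastases than in adenomas, by 0.98 ± 0.35 (adjusted p = 0.0458), a call that was lost in 14 of the 22 fits with 1 array left out. Suz12, which the enzyme needs for its stability, rose with both probes, by 0.87 ± 0.23 for A_51_P214796 (adjusted p = 0.0114) and 0.62 ± 0.17 for A_52_P302203 (adjusted p = 0.0131). With the brighter A_51_P214796, metastases had 0.51, -0.40, 0.55, 1.10 and 0.42, and carcinomas ran from -0.65 to -0.30 with a median of -0.39. Metastases 2 lay within the carcinomas and the other 4 lay above them. Between the slides the change of this probe ranged from -0.04 to 1.27. With A_52_P302203 the groups did not overlap, but its call was lost with Aquantile normalisation.

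The promoters of the core genes Ezh2, Eed and Suz12 and of Phf1, which moved the other way, are printed here. All 4 genes were called between carcinomas and metastases, 3 higher and 1 lower. The windows of the other members, some of them also called, were searched too but are not printed. The windows run from 250 bases before to 50 bases after the gene start in RefSeq (GRCm38.p6), 5′ to 3′ on the gene's strand, and capitals mark letters of a CCAAT box (CCAAT or ATTGG) or an E2F motif. The Ezh2 window is chr6:47594981-47595280 (minus strand), that of Eed chr7:89980927-89981226 (minus), that of Suz12 chr11:79992856-79993155 (plus) and that of Phf1 chr17:26932877-26933176 (plus).
Ezh2: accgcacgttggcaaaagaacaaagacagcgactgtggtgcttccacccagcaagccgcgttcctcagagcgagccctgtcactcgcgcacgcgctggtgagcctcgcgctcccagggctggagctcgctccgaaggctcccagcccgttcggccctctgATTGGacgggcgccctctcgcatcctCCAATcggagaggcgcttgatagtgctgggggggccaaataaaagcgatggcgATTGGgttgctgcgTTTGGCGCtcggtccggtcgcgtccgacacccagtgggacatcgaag
Eed: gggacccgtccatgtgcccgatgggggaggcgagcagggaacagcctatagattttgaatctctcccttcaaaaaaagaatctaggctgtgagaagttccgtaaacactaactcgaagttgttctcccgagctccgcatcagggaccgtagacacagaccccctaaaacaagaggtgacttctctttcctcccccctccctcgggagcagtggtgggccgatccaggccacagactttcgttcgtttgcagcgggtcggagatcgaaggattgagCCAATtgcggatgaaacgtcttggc
Suz12: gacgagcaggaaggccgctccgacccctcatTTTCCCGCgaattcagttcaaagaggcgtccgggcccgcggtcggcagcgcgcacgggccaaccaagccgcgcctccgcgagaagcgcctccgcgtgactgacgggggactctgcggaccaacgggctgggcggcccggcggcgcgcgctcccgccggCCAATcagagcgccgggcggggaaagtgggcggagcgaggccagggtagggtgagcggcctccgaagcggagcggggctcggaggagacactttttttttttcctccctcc
Phf1: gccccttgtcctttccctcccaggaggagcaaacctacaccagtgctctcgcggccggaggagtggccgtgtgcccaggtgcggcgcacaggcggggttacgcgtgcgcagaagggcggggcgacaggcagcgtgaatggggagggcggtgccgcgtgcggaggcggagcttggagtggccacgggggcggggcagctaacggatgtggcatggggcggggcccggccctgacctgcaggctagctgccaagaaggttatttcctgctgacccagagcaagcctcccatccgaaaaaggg
The E2F letters searched were TTTCCCGC, TTTCGCGC, TTTGCCGC and TTTGGCGC on both strands, and they stood in 2.26% of 32851 promoters of this length. Among 14 promoter windows of the 10 members, those of Ezh2 and Suz12 held such a match, TTTGGCGC in Ezh2 and TTTCCCGC in Suz12. CCAAT boxes, also searched on both strands, stood in 37.4% of all windows and in 9 of the 14, with 3 in Ezh2, 1 in Eed, 1 in Suz12 and none in Phf1. Among the other members called between carcinomas and metastases, Mtf2 had 3, Aebp2 had 1, Rbbp4 had 1 and Ezh1 had none. Of the members without a call there, Rbbp7 had 2 and Jarid2 had 1 in each of its windows. These matches describe letters in a window and were not tested against the expression values.

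The array probes have mm7 coordinates, given by the array files, and were not placed relative to the promoter windows, which are in GRCm38.p6. The Ezh2 probe lay at chr6:47568744-47569639, a span wider than a single probe of 60 bases, that of Eed at chr7:85913246-85916155, and the Suz12 probes at chr11:80115324-80115383 and chr11:80095051-80095110. No annotation of that build was used, so exons and untranslated regions were not assigned.

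**Figure D2:**
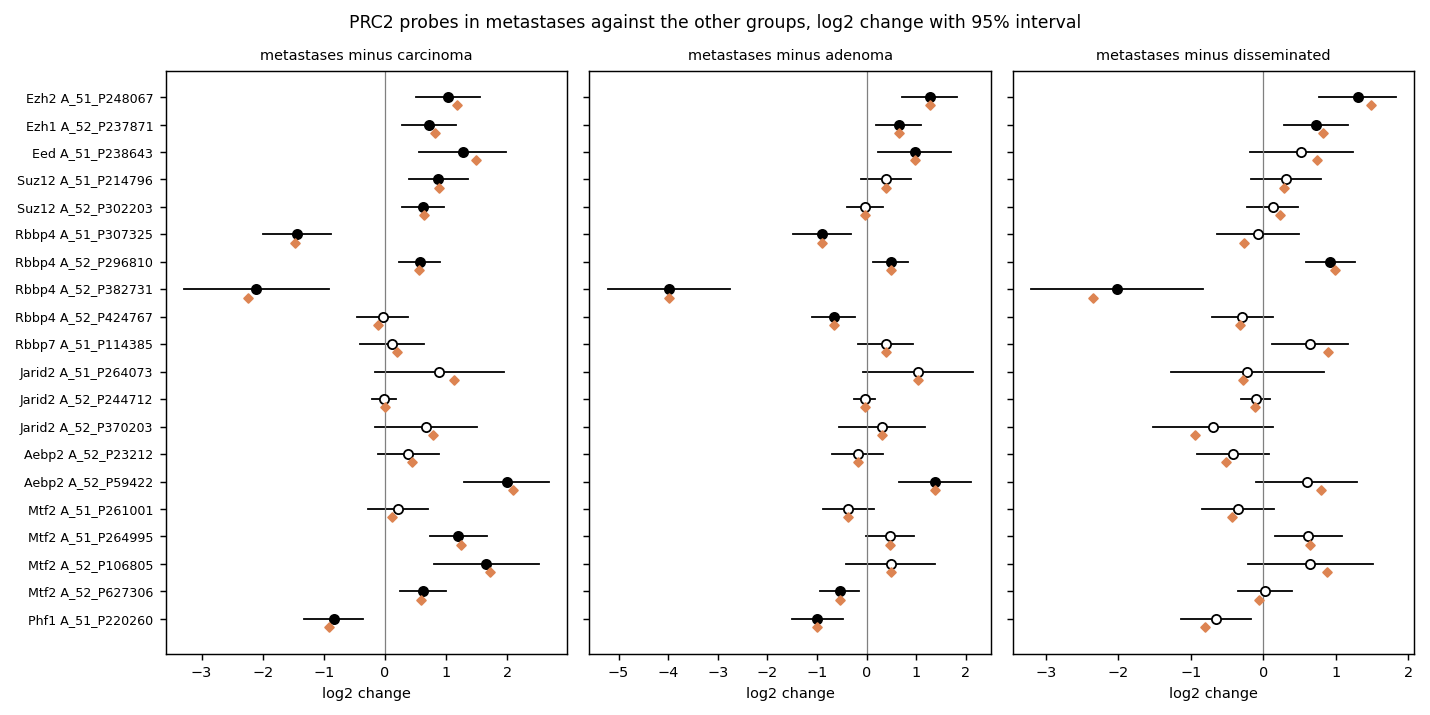
Log2 change of each of the 20 PRC2 probes (vertical axis) in metastases against carcinomas, adenomas and disseminated cells, with the 95% interval of the fit. Filled circles passed an adjusted p of 0.05, open circles did not, and orange diamonds below them give the change without carcinoma 6 and disseminated 6, which left all 13 calls against carcinomas in place.

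Among the histone-binding subunits, Rbbp4 gave opposite results with different probes, and Rbbp7 did not pass the test. The brightest Rbbp4 probe, A_51_P307325 (chr4:128754337-128754396, mm7), had log2 ratios of -0.94, -1.82, -1.26, -1.96 and -0.57 in metastases 1 to 5. Carcinomas 1 to 6 had 0.08, 0.20, 0.15, 0.24, 0.19 and -0.05. The groups did not overlap, carcinoma 6 included, and the change was -1.44 ± 0.27, or 2.71-fold lower in metastases (adjusted p = 0.00134). Probe A_52_P382731 fell further, by 2.10 against carcinomas (adjusted p = 0.0126), by 2.02 against disseminated cells (adjusted p = 0.0234) and by 3.99 against adenomas (adjusted p = 9.67e-05). Adenomas 1 to 5 had 2.33, 4.25, 5.18, 4.78 and 3.61 with it, and metastases 0.54, -0.68, -0.02, -0.26 and 0.64, with no overlap. This probe lay next to A_51_P307325, at chr4:128754253-128754312, but was written in the plus orientation whereas the other 3 Rbbp4 probes were written in the minus orientation, and it was designed to a separate cDNA, AK140625. Whether it reports the Rbbp4 messenger RNA was not tested.

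Probe A_52_P296810 of Rbbp4 (chr4:128767354-128767413) moved the other way. It had -1.42, -1.60, -0.99, -1.27 and -1.21 in metastases, all above the carcinomas at -2.16 to -1.65 and the disseminated cells at -2.41 to -1.85. The changes were 0.57 ± 0.16 against carcinomas (adjusted p = 0.0165) and 0.92 ± 0.16 against disseminated cells (adjusted p = 0.00125). The former call was lost with Aquantile normalisation or without metastases 3. The last Rbbp4 probe, A_52_P424767, changed by -0.04 against carcinomas with a 95% interval of -0.46 to 0.38. The direction for Rbbp4 thus depended on the probe. Rbbp7 changed by 0.12 against carcinomas (interval -0.41 to 0.64). Against disseminated cells it was 0.64 higher with an adjusted p of 0.102, and 0.89 higher with an adjusted p of 0.00109 once carcinoma 6 and disseminated 6 were left out.

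The accessory subunits differed among themselves. Aebp2 probe A_52_P59422 had the largest rise of the 20 probes from carcinomas to metastases, 1.99 ± 0.33 or 3.96-fold (adjusted p = 0.000659). Metastases 1 to 5 had 0.12, 0.12, 0.61, 0.72 and -1.32, and carcinomas 1 to 6 had -2.01, -2.28, -2.14, -1.86, -1.87 and -1.44, so the groups did not overlap, although metastases 5 lay close to carcinoma 6. Of the arrays, 3 of 6 carcinomas and 1 of 5 adenomas measured this probe well above background, and the change was 4.29 with the processed signals of the scanner software. The other Aebp2 probe, A_52_P23212, designed to another transcript record, changed by 0.38 ± 0.24 and did not pass (adjusted p = 0.295). Jarid2, which binds PRC2 and DNA, had no call between metastases and carcinomas. Its brightest probe, A_52_P370203, ran from 0.90 to 3.47 in metastases and from 0.94 to 2.21 in carcinomas, a change of 0.67 with an interval of -0.16 to 1.50. Probe A_52_P244712 of Jarid2 was not well above background on any of the 38 arrays and carried no usable level.

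Between carcinomas and metastases the called probes of the 2 Polycomb-like members moved in opposite directions. Mtf2 rose from carcinomas to metastases with 3 of its 4 probes, by 1.65 ± 0.41 with A_52_P106805 (adjusted p = 0.00799), 1.20 ± 0.22 with A_51_P264995 (adjusted p = 0.00128) and 0.61 ± 0.18 with A_52_P627306 (adjusted p = 0.0205). For A_51_P264995 the metastases had 0.14, 0.69, 0.48, 1.31 and 0.37 and the carcinomas -0.82, -0.84, -0.59, -0.52, -0.40 and -0.42, so every metastasis lay above every carcinoma. The same held for the other 2 called probes. The brightest probe, A_51_P261001, lay furthest towards the plus-strand end (chr5:107286243-107286302) and changed by 0.21 with an interval of -0.28 to 0.70. Phf1 fell by 0.84 ± 0.23 against carcinomas, 1.79-fold (adjusted p = 0.015), and by 0.99 ± 0.24 against adenomas (adjusted p = 0.0052). Its log2 ratios were -1.71, -1.03, -1.61, -1.71 and -1.36 in metastases and -0.09, -0.61, -0.84, -0.83, -0.48 and -1.02 in carcinomas, with no overlap, and the nearest values were those of metastases 2 and carcinoma 6. Adenomas 1 to 5, at -0.69, -0.32, -0.14, -0.67 and -0.64, lay above all metastases too. Against adenomas the 1 called Mtf2 probe, A_52_P627306, also fell in metastases, by 0.54, so the called changes of both genes were downward there.

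**Figure D3:**
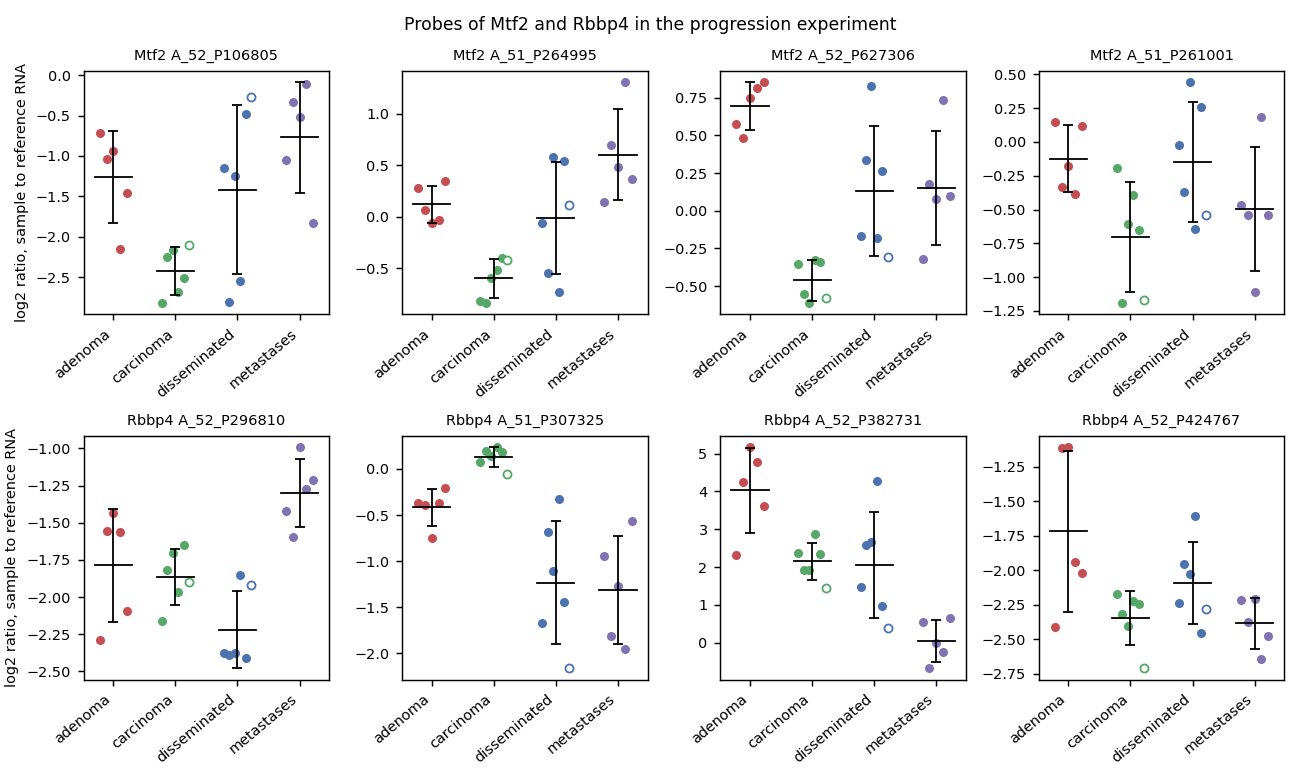
Log2 ratio of sample to reference RNA (vertical axis) for the 4 probes of Mtf2 and the 4 of Rbbp4 by progression stage, each row ordered along the direction of the gene. Points are arrays, bars the mean and SD and open points carcinoma 6 and disseminated 6. The first 3 Mtf2 panels show carcinomas below metastases and the panel of A_51_P261001 shows them overlapping, and the Rbbp4 panels of A_52_P296810 and A_51_P307325 show metastases on opposite sides of the carcinomas.

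The comparison of metastases with carcinomas could be made within slides, since both groups lay on the same 3. Of the 13 called probes, 12 had the same direction on all 3 slides, the exception being Suz12 A_51_P214796. For Ezh2 the slides gave changes between 0.93 and 1.24, and for the Rbbp4 probe A_51_P307325 between -1.88 and -1.13. With slide as a fixed term 13 member probes were called, as were 13 without carcinoma 6 and disseminated 6. Under every processing alternative and with any single array left out, 9 of the 13 stayed below an adjusted p of 0.05, namely those of Ezh2, Eed, Phf1, Suz12 A_51_P214796, Aebp2 A_52_P59422, Mtf2 A_51_P264995 and A_52_P106805, and Rbbp4 A_51_P307325 and A_52_P382731.

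Markers of other cell types moved with the stage, and their values stand beside those of the PRC2 genes. The part of RNA from such cells in the PRC2 changes was not tested. Metastases 2 and metastases 5 had macrophage marker means of 1.13 and 1.40, near the 0.31 to 1.32 of carcinomas 1 to 5. Their other lists were not at the level of those carcinomas: alveolar macrophage means were 1.38 and 2.23 against -0.10 to 0.58, and lung epithelial means 2.12 and 3.06 against 0.65 to 1.29. Metastases 5 also had a neutrophil mean of 3.64 against 2.02 to 2.44 and a T and NK cell mean of 1.04 against -0.16 to 0.13. In these 2 metastases Ezh2 was at -0.74 and -1.06, above carcinomas 1 to 5 at -2.49 to -1.99, and Rbbp4 A_51_P307325 was at -1.82 and -0.57, below those carcinomas at 0.08 to 0.24. Eed was at -0.43 and -1.48 there against -2.22 to -1.93, and Aebp2 A_52_P59422 at 0.12 and -1.32 against -2.28 to -1.86. Ezh1 ran from -1.85 to -1.42 in carcinomas 1 to 5. Its value lay above that range in metastases 2, at -0.14, and inside it in metastases 5, at -1.61. Carcinoma 6, with a macrophage mean of 4.77, had the highest carcinoma values of Ezh2, Eed, Ezh1 and Aebp2 A_52_P59422, at -1.34, -0.81, -1.12 and -1.44, and its Rbbp4 A_51_P307325 value of -0.05 was the lowest of the carcinomas. Its Phf1 value of -1.02 was also their lowest. For Mtf2 it lay inside the range of the other carcinomas. Carcinoma 6 was at -0.58 with A_52_P627306, against -0.61 to -0.33, and at -0.42 with A_51_P264995, against -0.84 to -0.40. Metastases 4 and metastases 3, with macrophage means of 4.76 and 4.04, had Ezh2 at -1.62 and -1.11, the lowest values of their group.

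**Figure D4:**
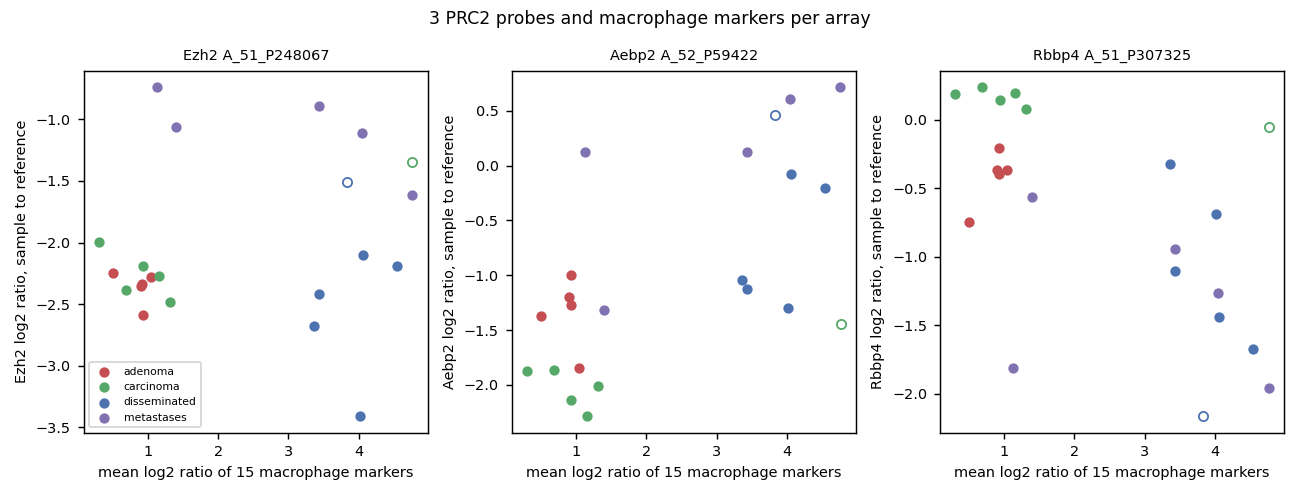
Log2 ratio of Ezh2, Aebp2 and Rbbp4 probes (vertical axes) against the mean log2 ratio of 15 macrophage markers (horizontal axis) on the 22 progression arrays, coloured by stage, with carcinoma 6 and disseminated 6 as open points. Metastases with macrophage means of 1.13 and 1.40 lay above carcinomas 1 to 5 for Ezh2 and Aebp2 and below them for Rbbp4. Their alveolar macrophage and lung epithelial means also lay above those carcinomas. Carcinoma 6, with a macrophage mean of 4.77, had the highest carcinoma values for Ezh2 and Aebp2 and the lowest for Rbbp4. The part of macrophage RNA in these values was not tested.

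Against adenomas, metastases had 10 called PRC2 probes, 5 higher and 5 lower, where 27.4% of all probes were called, 13.1% higher and 14.4% lower. Higher were Ezh2, Ezh1, Eed, Aebp2 A_52_P59422 (by 1.39) and Rbbp4 A_52_P296810 (by 0.49). Lower were Phf1, the other 3 Rbbp4 probes and Mtf2 A_52_P627306, which fell by 0.54 (adjusted p = 0.0382). The split turned to 1 higher and 3 lower with Aquantile normalisation, to 5 and 3 with the processed signals, and to 7 and 3 in the deposited log2 ratios. Ezh2, Phf1 and Rbbp4 A_52_P382731 were called under every one of these. Without metastases 2, 3 or 4, or without adenoma 5, 6 probes were called.

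Ezh2, Ezh1 and Eed were not among the probes called in the 3 comparisons of adenomas, carcinomas and disseminated cells. From adenomas to carcinomas 5 PRC2 probes were called, all lower, against 11.5% of all probes in either direction and 5.22% lower. They were 2 of Mtf2, 2 of Rbbp4 and 1 of Suz12, and of these Mtf2 A_52_P627306 kept its call under all alternatives. For that probe adenomas 1 to 5 had 0.58, 0.48, 0.74, 0.81 and 0.85 and carcinomas 1 to 6 had -0.35, -0.55, -0.61, -0.33, -0.34 and -0.58, with no overlap and a change of -1.15 ± 0.18, or 2.23-fold lower (adjusted p = 0.000632). Metastases, at -0.32, 0.18, 0.08, 0.73 and 0.10, lay above all carcinomas and, but for metastases 4, below all adenomas. The other 4 calls were lost under several settings: only 1 probe was called with Aquantile normalisation, with the processed signals, or without adenoma 2 or adenoma 3. Without carcinoma 6 and disseminated 6 the call of Rbbp4 A_52_P424767 was lost (adjusted p = 0.0908). In the deposited ratios 3 were called, with Rbbp4 A_51_P307325 higher by 0.75 and 2 Mtf2 probes lower.

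Disseminated cells against adenomas gave 3 called PRC2 probes, all lower, against 18.2% of all probes in either direction and 10.6% lower. These were Mtf2 A_52_P627306 (-0.56, adjusted p = 0.0353), Rbbp4 A_51_P307325 (-0.82, adjusted p = 0.0399) and Rbbp4 A_52_P382731 (-1.97, adjusted p = 0.0209). Within the 3 slides that both groups shared, 2 of the 3 kept their direction on every slide. Rbbp4 A_51_P307325 did not, with changes from -1.55 to 0.24. None of the 3 kept its call under all alternatives, and no probe was called in the deposited ratios, without disseminated 5 or without adenoma 4. Without carcinoma 6 and disseminated 6, 4 probes were called, among them Jarid2 A_52_P370203, which was higher in disseminated cells by 1.26 (adjusted p = 0.0209). That Jarid2 probe was also the only one called with Aquantile normalisation.

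Disseminated cells against carcinomas gave 6 called PRC2 probes, 5 higher and 1 lower, against 24.7% of all probes (9.47% higher and 15.2% lower). Both Aebp2 probes were higher, by 1.39 ± 0.32 for A_52_P59422 (adjusted p = 0.00389) and 0.80 ± 0.23 for A_52_P23212 (adjusted p = 0.0151). Jarid2 A_52_P370203 was higher by 1.36 ± 0.38, 2.57-fold (adjusted p = 0.0129). Its values in disseminated 1 to 6 were 3.06, 3.01, 3.58, 2.99, 3.50 and 1.69, and in carcinomas 1.14, 0.94, 1.08, 2.16, 2.16 and 2.21, so 5 of 6 disseminated samples lay above all carcinomas and disseminated 6 lay among them. Mtf2 A_52_P627306 and Suz12 A_52_P302203 were higher by 0.59 and 0.49. Rbbp4 A_51_P307325 was lower by 1.36 on the log2 scale, with no overlap between -2.16 to -0.33 in disseminated cells and -0.05 to 0.24 in carcinomas (adjusted p = 0.000989). Without disseminated 4, 12 probes were called. Without carcinoma 6 and disseminated 6, 7 were called: Suz12 A_52_P302203 was lost (adjusted p = 0.0734), and Jarid2 A_51_P264073, higher by 1.42 (adjusted p = 0.0472), and Rbbp7, lower at -0.69 (adjusted p = 0.00529), were added. Medians of the macrophage, alveolar macrophage, neutrophil, endothelial, lymphocyte and lung epithelial markers were also higher in disseminated cells than in carcinomas, and their part in these changes was not tested. Between metastases and disseminated cells 4 PRC2 probes were called against 12.9% of all probes (6.94% higher and 5.94% lower), those of Ezh2, Ezh1 and Rbbp4 A_52_P296810 higher and Rbbp4 A_52_P382731 lower in metastases. With Aquantile normalisation and in the deposited ratios the split was 2 and 2, with Phf1 in place of Ezh1. Without disseminated 2 or metastases 2, 2 were called, and without carcinoma 6 and disseminated 6, 6 were called, with Rbbp7 (0.89) and Phf1 (-0.81, adjusted p = 0.0102) added.

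Genes that act beside PRC2 were described with 1 brightest probe a gene. PRC1 is the complex that binds the methyl mark and ubiquitinates histone H2A, and of its 21 genes 5 were higher and 1 lower in metastases than in carcinomas, against 7.82% higher and 14.1% lower over all gene names. The 3 largest rises were those of Rybp (2.07), Pcgf3 (1.22) and Pcgf5 (0.84), and Pcgf1 fell by 0.74. The Pcgf5 call was lost without moderation and in 5 of the 22 fits with 1 array left out, and under the alternatives 4 to 6 genes of the list were higher and 1 to 4 lower. The median change of the 21 genes was -0.16, beside -0.05 over all gene names. Against adenomas the split of PRC1 genes was the other way, 2 higher and 6 lower in metastases, beside 12.9% and 15.6% of all gene names. Under the alternatives 2 to 3 were higher and 4 to 6 lower there. The remaining values of this paragraph are again those against carcinomas. Of 3 further PRC2 accessory genes on the array, Lcor was 1.50 higher and Epop and Phf19 were 1.41 and 0.66 lower. The histone acetyltransferase Crebbp, whose mark on lysine 27 excludes methylation there, was 1.58 higher and the other 7 genes of the list of demethylases, acetyltransferases and H2A deubiquitinases did not pass, Kdm6a and Kdm6b among them at 0.51 and 0.21.

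Ink4 and Hox genes are classical targets of the complex. Of 40 measured, 3 were called between metastases and carcinomas, all lower, beside 7.82% of all gene names higher and 14.1% lower, namely Hoxa3 (-0.81), Hoxb7 (-0.58) and Hoxd12 (-0.33), and the number lower ran from 0 to 8 under the alternatives. Against adenomas 2 were higher and 10 lower, where 12.9% of all gene names were higher and 15.6% lower and the number lower ran from 5 to 18 under the alternatives, with Cdkn2b, an inhibitor of cyclin-dependent kinases, 2.19 higher. Ezh2 is known to rise in proliferating cells, and the part of proliferation in its levels was not tested. Of 37 cell cycle genes 1 was higher (Pcna, by 2.10) and 2 were lower (Ccnb2 by 0.92 and Tyms by 0.86) in metastases than in carcinomas, against 7.82% of all gene names higher and 14.1% lower, and the number lower ran from 0 to 8 under the alternatives. Against adenomas 1 was higher and 23 were lower, beside 12.9% and 15.6% of all gene names, with a median change of -0.97, and the number lower ran from 16 to 25.

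The genes whose pattern over the 22 progression arrays was most like that of Ezh2, by Pearson's r across 27952 gene names, were Nmd3 (0.94), Rpl13a (0.92), TC1429179 (0.92), Pnn (0.92) and Snrpe (0.91). Among the members r was 0.74 for Rbbp7, 0.73 for Ezh1 and 0.69 for Eed, and -0.74 for Phf1. Over the 16 chemotherapy arrays the 5 closest were Spag5 (0.92), Dtl (0.91), E2f7 (0.91), Top2a (0.90) and Ect2 (0.90), with 0.68 for Rbbp7 and -0.72 for Phf1. The arrays share stage or treatment, slides and the reference RNA, and these coefficients only describe them.

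The chemotherapy experiment asked whether residual and relapsed tumours differ from untreated ones. Limma called none of the 20 PRC2 probes in any of its 3 comparisons, nor in the F test over the groups, and a test without moderation of the variances, adjusted in the same way, called none either. Treatment followed slide in part. Slide 1 held 4 untreated tumours and slide 3 held 3 residual tumours, with no other group, and the relapsed tumours lay on slides 4 and 5. The 3 comparisons are thus partly confounded with slide. Few probes of the array were called at all, 0.17% between residual and untreated tumours, 0.00486% between relapsed and untreated, 0.228% between relapsed and residual and 0.318% in the F test. At an unadjusted p under 0.05 the counts were 2, 4, 0 and 2 of 20, where 8.85%, 7.62% and 7.37% of all probes passed in the 3 comparisons and 9.2% in the F test. The changes of the 20 probes lay between -0.68 and 0.37 in residual tumours, between -0.52 and 0.41 in relapsed tumours, and between -0.30 and 0.54 from residual to relapsed tumours.

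Ezh2 had log2 ratios of -1.26, -1.65, -1.62, -1.33, -1.07 and -1.48 in untreated tumours 1 to 6. Residual tumours had -1.72, -1.78, -1.53, -1.61, -1.16 and -1.93, and relapsed tumours 1 to 4 had -1.88, -1.36, -1.21 and -1.21. The 3 groups overlapped. The change was -0.22 in residual tumours, with an interval of -0.53 to 0.08, and -0.02 in relapsed tumours, with an interval of -0.36 to 0.32, so a 2-fold change lay outside both intervals in either direction. The same was true of Ezh1, Eed, both Suz12 probes and Rbbp7, whose intervals stayed between -0.56 and 0.54 in both comparisons with untreated tumours.

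The lowest adjusted p of a member was 0.201, for Mtf2 A_52_P627306 between relapsed and untreated tumours, a change of -0.52 ± 0.11 with an unadjusted p of 0.000288. Untreated tumours had 0.38, -0.04, 0.17, 0.41, 0.28 and 0.43 with this probe and relapsed tumours -0.05, -0.11, -0.59 and -0.26, so all relapsed tumours lay below all untreated ones, the nearest by little. Groups did not overlap for 1 of the 20 probes here, and for 1.63% of all probes. Mtf2 A_51_P264995 and A_52_P106805 changed by -0.44 and -0.39, with adjusted p of 0.366 and 0.642, and the brightest Mtf2 probe by -0.02. Phf1 changed by 0.37 in residual tumours (interval -0.02 to 0.77, adjusted p = 0.585).

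**Figure D5:**
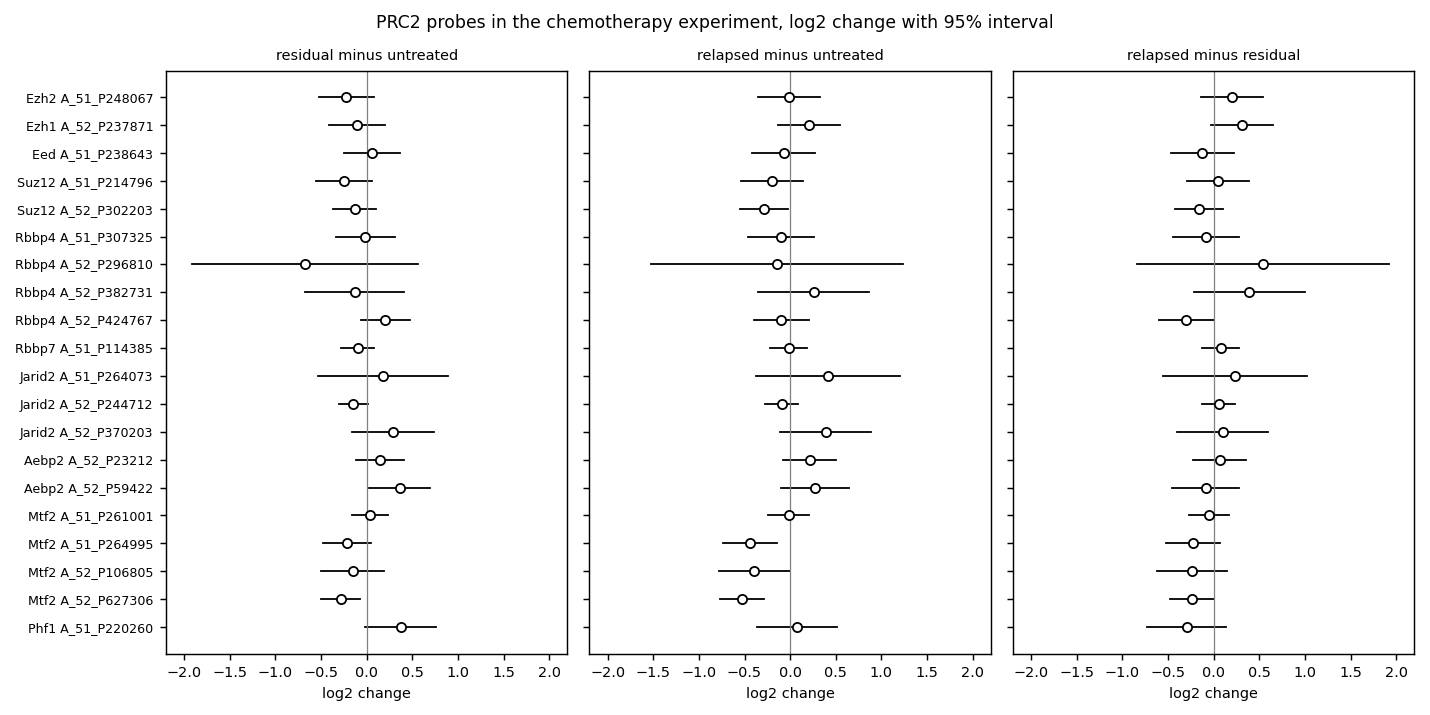
Log2 change of each of the 20 PRC2 probes (vertical axis) between untreated, residual and relapsed tumours, with the 95% interval of the fit. All circles are open, since no probe passed an adjusted p of 0.05, and the widest intervals belonged to Rbbp4 A_52_P296810, at -0.68 in residual tumours.

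Rbbp4 A_52_P296810 varied more among untreated and among relapsed tumours than any other member probe. Untreated tumours 1 to 6 had 2.49, 0.97, 2.25, -0.32, -0.39 and -0.63, residual tumours ran from -0.99 to 0.95, and relapsed tumours had 0.96, 0.99, 1.46 and -1.06. The macrophage marker means of untreated tumours 1 to 6 were 2.22, 2.57, 2.02, 0.20, 0.16 and 0.43. The 3 untreated tumours with the higher values of this probe thus had the higher marker values. Relapsed 4, at -1.06, had the lowest marker mean of its group, -0.21. In residual tumours the lowest value of the probe, -0.99, was that of residual 1. Its marker mean of 1.25 lay above the group median of 0.43. In the progression experiment disseminated cells had the lowest group mean of the probe, -2.22, with macrophage means of 3.36 to 4.55. The part of macrophage RNA in these values was not tested. The change of Rbbp4 A_52_P296810 in residual tumours was -0.68 with an interval of -1.91 to 0.56, which includes a 2-fold fall. Of the context lists, PRC1, the further accessory genes, the demethylase and acetyltransferase list, the Ink4 and Hox genes and the cell cycle genes had no gene called by limma in any chemotherapy comparison. At an unadjusted p under 0.05, between residual and untreated tumours, 3 of 21 PRC1 genes, 1 of 3 accessory genes, 1 of 8 of the demethylase list, 2 of 40 Ink4 and Hox genes and 3 of 37 cell cycle genes passed, beside 9.18% of all gene names. Between relapsed and untreated tumours the counts were 3, 1, 0, 5 and 0, beside 7.73%, and between relapsed and residual tumours 2, 0, 0, 1 and 2, beside 7.85%. The median change of the 37 cell cycle genes was -0.53 in residual tumours and -0.14 in relapsed tumours.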

How the data were processed

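Expression was measured in 38 samples on Agilent mouse two-colour arrays with 45018 spots, each sample in Cy5 against a universal reference RNA in Cy3, with no dye swap. The authors deposited scanner files of Agilent Feature Extraction 10.7 (version per the submitters' processing notes) with the intensity and local background of each spot, and a matrix of log2 ratios, which was used as an alternative. Groups came from the sample titles. After the study's methods, intensities were background-corrected by normexp (offset 50), normalised by loess within arrays and by quantiles between arrays. Here control spots had weight 0 and each experiment was normalised by itself. Spots of a probe were averaged, and 41174 probes were fitted with limma 3.58.1 in R 4.3.3, with all groups of an experiment sharing 1 estimate of the spread. An F test and all pairwise comparisons (6 in progression, 3 in chemotherapy) were adjusted by Benjamini-Hochberg over all probes, and a probe with an adjusted p under 0.05 was called. Intervals are 95% intervals of the fit. The number of arrays limits the precision. The fit was tested on simulated data with independent noise, without effects of slide, scanning day or cell mixture. A log2 change of 1 was recovered for 55 to 64% of changed probes in comparisons with metastases. In comparisons with relapsed tumours the share was 78 to 80%. These comparisons had 5 to 8 false calls each, and no change was simulated between residual and untreated tumours.

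All 20 probes of the 10 genes were accounted for, and a gene was represented by its brightest probe (by mean signal) where 1 value was given. Of a pathway list at most the 3 largest rises and falls among called genes were named, with the 5 genes most like Ezh2. Kdm6a and Kdm6b were named in addition, after their values were seen. The members, the pathway lists and the marker lists were chosen with earlier results of these data known. Alternatives covered background correction, normalisation, the deposited ratios, dim probes, 1 probe a gene, slide, replicate number, the samples in the fit, a test without moderation, stricter thresholds and each array left out. Leaving out carcinoma 6 and disseminated 6 together and replacing local backgrounds above 3 times the array median were added after seeing the data. Promoter sequences came from RefSeq tables (GRCm38.p6) and probe coordinates from the array files (mm7).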

Additional observations from a re-analysis of the deposited data

Results flagged for a closer look

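In 5 of 140 groups of 4 to 6 arrays, 1 array lay far from the rest by Dixon's test, which compares the gap to the nearest array with the range of the group, where chance marks about 1 group in 20, or 7. Eed in carcinoma 6 was at -0.81 on the log2 ratio scale, and the nearest other carcinoma was at -1.93. Rbbp7 in disseminated 6 was at -0.43, and the nearest disseminated sample was at -1.75. Jarid2 A_52_P370203 in disseminated 6 was at 1.69, below the nearest at 2.99. These 3 values belong to carcinoma 6 and disseminated 6, which had the lowest correlations with their own groups among the progression arrays. Jarid2 A_52_P244712 in disseminated 4 was at 0.54, with the nearest at 0.17, and this probe was not well above background on any array. Mtf2 A_52_P106805 in untreated 2 was at -1.10, with the nearest untreated tumour at -0.45.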

How the results depend on the processing

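No called PRC2 probe changed direction under any alternative, and in the chemotherapy experiment 0 probes were called under each of them. Metastases against carcinomas gave 10 to 13 calls in every setting that tested all 20 probes at the same threshold. In the order carcinoma minus adenoma, disseminated minus adenoma, metastases minus adenoma, disseminated minus carcinoma, metastases minus carcinoma and metastases minus disseminated, the calls were 5, 3, 10, 6, 13 and 4, and the F test called 16. With 1 probe a gene name, which tests 1 probe a member, they were 0, 1, 6, 3, 7 and 2, and 8 in the F test. At an adjusted p under 0.01 they were 1, 0, 4, 2, 5 and 2, and 8 in the F test. With a 2-fold change required as well they were 2, 1, 3, 3, 7 and 2. Aquantile and no normalisation between arrays, which give the same log ratios by construction, gave 1, 1 and 4 for the first 3. The deposited ratios gave 3 and 0 for the first 2 and 10 for disseminated minus carcinoma. Carcinoma minus adenoma had 3 calls with normexp offset 0, 1 with the processed signals, 1 with median centring, 1 with outlying local backgrounds replaced, 3 with slide as a random block and 8 with only the groups compared. Disseminated minus adenoma had 1 with the processed signals, 0 with only the groups compared and 0 without moderation. The test without moderation gave 4 for metastases minus adenoma and 1 for metastases minus disseminated, and the fit of only these last groups gave 2. The cause was not tested, beyond the fewer probes or the stricter rule that some settings bring by construction.

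With 1 array left out the calls ran from 1 to 5, 0 to 4, 6 to 10, 5 to 12, 11 to 13 and 2 to 6 in the same order, and from 13 to 17 in the F test. Carcinoma minus adenoma fell to 1 without adenoma 2 or 3, to 2 without carcinoma 1, 2, 3 or 5 and to 3 without carcinoma 4 or 6, and disseminated minus adenoma to 1 without disseminated 1 or adenoma 3. Slide as a fixed term was not run for the F test of progression and for the 4 comparisons whose groups lay on different slides.

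Replicate numbers did not pair the samples: over 31 pairs of progression arrays with the same number the correlation of their deviations ran from -0.391 to 0.287, and 2 of 22 arrays correlated best with their own number. In chemotherapy 14 pairs ran from -0.404 to 0.432, with 6 of 16 arrays. With the replicate block the calls were 2, 1, 10, 7, 13 and 6, with 15 in the F test and 0 in chemotherapy. Probes near background limit the sizes given for Ezh1 and Aebp2 A_52_P59422.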

Other observations

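Suz12 A_51_P214796 had log2 ratios of -1.30, -1.44 and -1.37 in untreated tumours 1 to 3 and of -0.78, -0.67 and -0.60 in untreated tumours 4 to 6. Rbbp4 A_52_P382731 had 1.83, 1.81 and 1.85 against 0.79, 1.29 and 0.65 in these tumours. Their macrophage marker means were 2.22, 2.57 and 2.02 against 0.20, 0.16 and 0.43, and the part of macrophage RNA in these values was not tested. The split of the untreated tumours and these probes were picked from the values. How many other member probes, or probes of the whole array, split these tumours alike was not counted.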
